A study of Homo sapiens with 2 samples.

Results

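The genes described here code for RNA-binding proteins that package pre-mRNA and choose splice sites. They were chosen by symbol, with earlier results of these data known. In all they number 39 of the 19970 protein-coding genes of GENCODE release 44 on chromosomes 1 to 22 and X. They comprise 18 heterogeneous nuclear ribonucleoprotein genes with an HNRNP symbol, 10 serine/arginine-rich splicing factor genes (SRSF), EWSR1 and TAF15 of the FET family, and 9 others (PTBP1, SYNCRIP, KHDRBS1, SAFB, SAFB2, RBM15, CIRBP, PABPN1 and FBL). The data are a list of 33349 peaks on those chromosomes, made from 1 H4R3me2a immunoprecipitation library set against 1 input DNA library, both from HCT116, an established human colorectal carcinoma line that received no drug. Chromatin was cross-linked with formaldehyde, sheared by sonication and sequenced as paired-end Illumina reads, and the clone or maker of the antibody is not given in the labels. The labels name colon as the tissue, and a peak list holds no expression values against which markers of the cell type could be checked. There were no replicates, so no difference below has a replicate check, and intervals (95%, exact) cover counting error only.

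H4R3me2a is the asymmetric dimethylation of arginine 3 in the tail of histone H4, a modification generally linked to active chromatin and deposited chiefly by the enzyme PRMT1. The same enzyme methylates arginines in many RNA-binding proteins, mostly where arginine is followed by glycine, and hnRNP proteins hold a large part of the asymmetric dimethylarginine of the nucleus. The peaks here report on the chromatin of the genes, not on methylation of the proteins they encode. HnRNP proteins coat nascent transcripts and often repress splice sites, whereas SR proteins bind exonic enhancers and recruit the spliceosome.

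A peak was assigned to a gene when its summit lay in the gene body or within 1 kb of any of its transcription start sites (TSSs). By this rule the 39 genes held 39 distinct peaks, 1 of them shared by SAFB and SAFB2, which gives 40 pairs of peak and gene. The peaks were divided by the canonical transcript. The 5' end class took 10 peaks, within 1 kb of the canonical TSS, and introns beyond that took 23. Coding exons took 2, the rest of the gene body outside the canonical transcript 4, and 3' UTRs none.

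To show the sites themselves, the 30 bases around the summit are given for the 5' end peak and the intron peak of highest fold in each family, from the GRCh38 sequence on the strand of the gene, with CpG dinucleotides in capitals. The 5' end sites were chr1:244864179-244864208 (minus strand) in HNRNPU, chr12:120468974-120469003 (minus) in SRSF9, chr22:29268859-29268888 (plus) in EWSR1 and chr1:32014111-32014140 (plus) in KHDRBS1. The intron sites were chr10:43405884-43405913 (minus) in HNRNPF, chr6:36597151-36597180 (plus) in SRSF3, chr17:35813024-35813053 (plus) in TAF15 and chr6:85641801-85641830 (minus) in SYNCRIP. The HNRNPF peak tied in fold with that of HNRNPM.
HNRNPU, 5' end: ctcatggagCGactccaggctgCGctggac
SRSF9, 5' end: ggagagcaagctgcagggtCGCGgatgcCG
EWSR1, 5' end: gagCGggagcccCGtcatccttaagaccca
KHDRBS1, 5' end: CGctgcctcacCGgtccCGgggaggCGgag
HNRNPF, intron: tcttagttgccctgagctaCGgttcttgtg
SRSF3, intron: ctggagtgcagtggtacagtctccCGctcc
TAF15, intron: ggctgaggcaccagaattggttgaagctag
SYNCRIP, intron: tttgggggtttatctttgagagagaggagc

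The 5' end sites held 2 to 4 CpGs in these 30 bases, with 4 at KHDRBS1, and the intron sites held 1 or none. The GC content of the same stretches was 63.3% to 80% at the 5' ends and 46.7% to 63.3% in the introns.

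A peak was found at 22 of the 39 genes (56.4%, interval 39.6 to 72.2%), against 47.2% of all protein-coding genes. Among protein-coding genes within the length range of these genes, 3.22 to 60.4 kb, the share was 48.5%. All 39 genes start in CpG-rich sequence (GC content of at least 50% and observed CpGs at no less than 0.6 times the number base composition gives, in the 500 bp either side of the canonical TSS), as do 64.9% of protein-coding genes, and 55.6% of genes with such a start had a peak. The interval of the 39 genes covers all of these background shares.

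By position, 9 of 39 genes had a 5' end peak (23.1%, interval 11.1 to 39.3%), beside 21.4% of all protein-coding genes. An intron peak was present in 15 (38.5%, 23.4 to 55.4%), beside 30.5%. A coding exon peak was present in 2 (5.13%, 0.627 to 17.3%), beside 11.4%, and a peak outside the canonical transcript in 4 (10.3%), beside 6.79%. No gene had a 3' UTR peak, with an exact interval of up to 9.03% (7.69% by the limit of 3 counts), beside 5.08% of all genes. At 39 genes a difference from the background was not detectable in any of these classes.

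**Figure D1:**
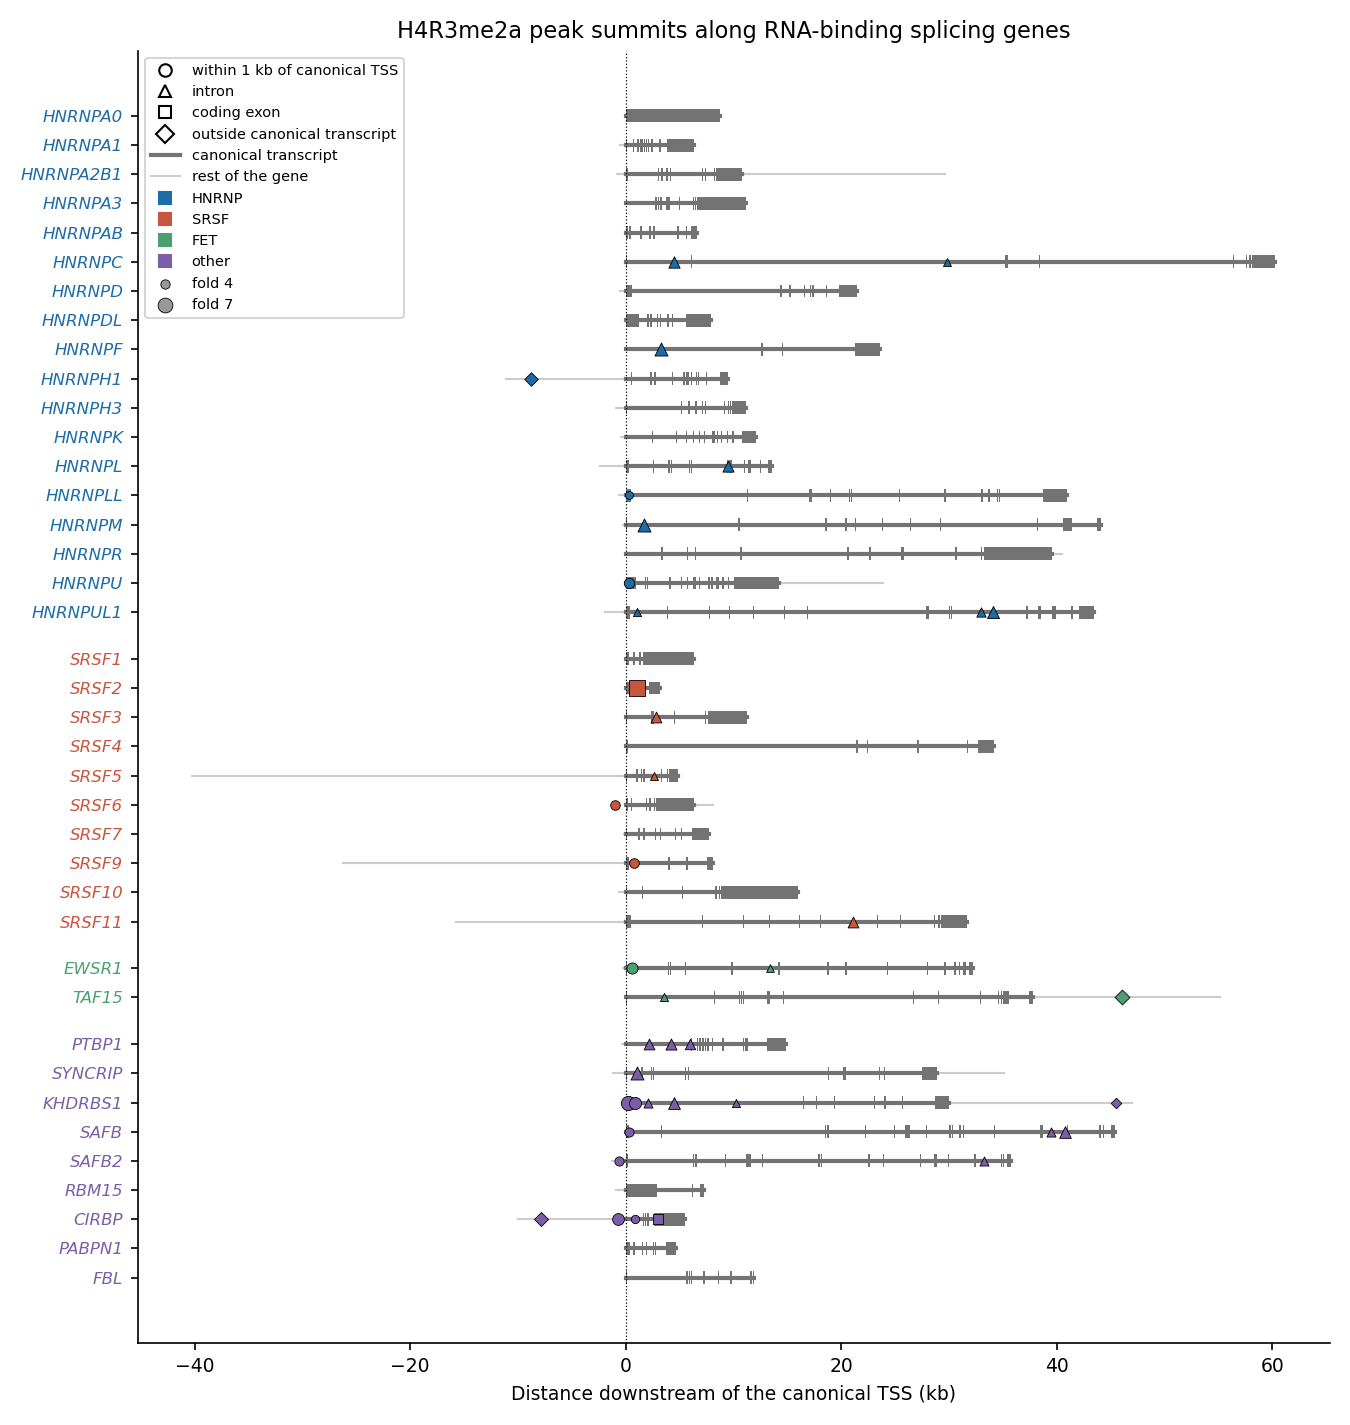
Summits of H4R3me2a peaks along the 39 genes, against the distance downstream of the canonical TSS in kb, with canonical exons as boxes and the remaining gene body as a thin line. Colours give the family, shapes the class and sizes the authors' fold; 22 genes carry a peak, 17 do not, and no summit falls in a 3' UTR.

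Since genes differ in length, the peaks were also counted per 100 kb of each kind of sequence. Pairs of peak and gene were counted, so the summit shared by SAFB and SAFB2 entered once for each gene. The 11 pairs at 5' ends hold 10 distinct peaks, and the interval treats the pairs as separate counts. The 5' ends of the 39 genes held 14.1 summits per 100 kb (interval 7.04 to 25.2) and those of all protein-coding genes 12.3. Their introns held 3.78 (2.4 to 5.68), against 1.48 in all protein-coding genes but 4.38 in genes of the same length range, so the intron rate was above that of all genes but not above that of genes of like length. Coding exons held 4.2 (0.509 to 15.2), from 2 summits in 47.6 kb, against 10.2 in all genes and 15.3 in the same length range, a rate just above the interval. The 3' UTRs held none in 74.7 kb, with an exact interval of up to 4.94 per 100 kb (4.02 by the limit of 3 counts), and the rates were 3.52 in all genes and 4.86 in the same length range. The exact interval covers both rates.

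**Figure D2:**
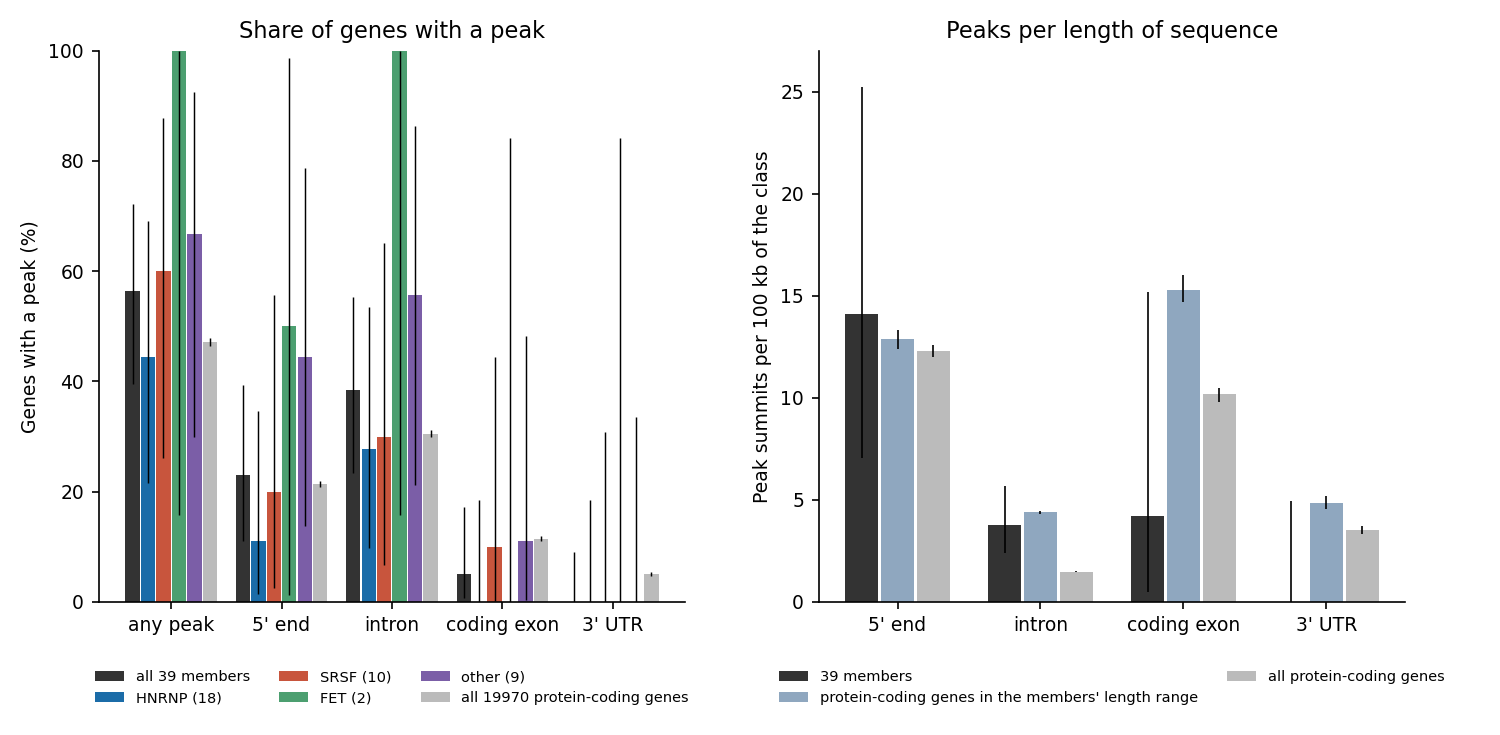
Left, percentage of genes with a peak, in any place and by class, for the 39 genes, each family and all 19970 protein-coding genes. Right, summits, counted as pairs of peak and gene, per 100 kb of each class for the 39 genes, genes of like length and all genes. Bars are shares or rates and lines are 95% exact intervals from counting alone; those of the families are wide and overlap throughout.

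Among the HNRNP genes, 8 of 18 had a peak (44.4%, 21.5 to 69.2%), beside 47.2% of all protein-coding genes. An intron peak was present in 5 (27.8%, beside 30.5%) and a 5' end peak in 2 (11.1%, beside 21.4%). A peak outside the canonical transcript was present in 1 (5.56%, beside 6.79%). HNRNPF, whose protein binds G-rich tracts, had 1 peak in intron 1 (chr10:43405824-43405974), 3288 bp downstream of the TSS, with a pileup of 11 fragments over a background of 1.02 and a fold of 5.93. The pileup counts fragments stacked at the summit, the background is the local level recovered from the caller's values, and pileup and fold are the authors' own. HNRNPM, coding for another pre-mRNA-binding hnRNP, also had its peak in intron 1 (chr19:8446500-8446674), 1670 bp downstream, with the same pileup, background and fold. In the whole list 1270 peaks had a higher fold than these.

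HNRNPUL1, a relative of HNRNPU, held 3 intron peaks, the most in the family. The first lay 1064 bp downstream of the TSS in intron 1 (chr19:41265280-41265437, 8 fragments, background 1.54, fold 3.55). The others lay close together in intron 10, at 32929 bp (chr19:41297238-41297602, 10 fragments, background 1.75, fold 4) and 34098 bp (chr19:41298358-41298511, 12 fragments, background 1.43, fold 5.36). The summit with the highest of these folds was 20 bp from an annotated internal TSS.

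HNRNPC, whose protein binds uridine tracts, had 2 intron peaks. That in intron 1 (chr14:21264857-21265012, 9 fragments, background 1.01, fold 4.97) lay 4524 bp downstream of the canonical TSS, 598 bp from another TSS and in an exon of another protein-coding transcript. That in intron 2 (chr14:21239445-21239618, 6 fragments, background 1.02, fold 3.46) had 30 summit bases that occur 5605 times in the genome.

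HNRNPL, which recognises CA-rich RNA, had a peak in intron 7 (chr19:38840374-38840634, 10 fragments, background 1.25, fold 4.89), 28 bp from a canonical exon and 282 bp from a TSS of a protein-coding gene with no symbol. The 5' end peaks of the family were those of HNRNPU and HNRNPLL. HNRNPU, a chromatin-associated hnRNP also known as scaffold attachment factor A, had its summit 350 bp downstream of the TSS in the coding part of exon 1 (chr1:244864043-244864221, 8 fragments, background 1.02, fold 4.45). HNRNPLL, a paralogue of HNRNPL known for regulating splicing of CD45 in T cells, had its summit 284 bp downstream in the 5' UTR (chr2:38602641-38602773, 6 fragments, background 1.02, fold 3.46). HNRNPH1, like HNRNPF a binder of G-rich tracts, had 1 peak 8738 bp upstream of its canonical TSS, inside a longer annotated form of the gene (chr5:179632375-179632687, 6 fragments, background 0.697, fold 4.12).

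The 10 HNRNP genes without a peak included HNRNPA0, HNRNPA1, HNRNPA2B1, HNRNPA3, HNRNPAB, HNRNPD and HNRNPDL. These are the A/B and D types, hnRNPs with a pair of RNA recognition motifs, and none of the 7 had a peak (exact interval up to 41%, or 42.9% by the limit of 3 counts). Of the remaining 11 HNRNP genes 8 did (72.7%, 39 to 94%), beside 47.2% of all protein-coding genes and 48.5% of those in the length range. This grouping was made after the values were seen and was not tested, so it does not show a split within the family. The 7 genes are shorter, at a median of 8.71 kb (6.63 to 30.4 kb), against 23.9 kb (12 to 60.4 kb) in the 11. HNRNPH3, HNRNPK, which binds C-rich sequence, and HNRNPR were the other genes without one.

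Among the SRSF genes, 6 of 10 had a peak (60%, 26.2 to 87.8%), beside 47.2% of all protein-coding genes. Each of the 6 had 1. SRSF2, also known as SC35, carried the highest fold of all 39 genes. Its peak (chr17:76735891-76736366) was 476 bp wide, with 14 fragments over a background of 1.02, a fold of 7.41 and a −log10 q of 6.71, and 117 peaks in the whole list had a higher fold. The summit lay in coding exon 2, 1014 bp downstream of the canonical TSS, just beyond the 1 kb limit of the 5' end class. It was also 248 bp from a TSS of MFSD11, a neighbouring gene, so the peak cannot be assigned to SRSF2 alone.

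Intron peaks were present in 3 of the 10 SRSF genes (30%, 6.67 to 65.2%), beside 30.5% of all protein-coding genes. These were SRSF3, SRSF5 and SRSF11. In SRSF3, the smallest SR protein, the summit lay in intron 2, 2803 bp downstream (chr6:36597087-36597310, 11 fragments, background 1.54, fold 4.73). In SRSF5 it lay in intron 5, 2624 bp downstream (chr14:69769520-69769810, 6 fragments, background 1.01, fold 3.48), and in SRSF11 in intron 7, 21093 bp downstream (chr1:70242431-70242599, 7 fragments, background 0.697, fold 4.71). SR protein genes are known for poison exons, whose inclusion sends the transcript to nonsense-mediated decay. The summit in SRSF5 lay in an exon of an annotated decay transcript, but also in an exon of a retained-intron transcript and 20 bp from an annotated TSS of the gene. That in SRSF3 lay in an exon of a retained-intron transcript, whereas that in SRSF11 lay in no annotated exon.

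SRSF6 and SRSF9 had the 5' end peaks of the family, which is 2 of 10 genes (20%, 2.52 to 55.6%), beside 21.4% of all protein-coding genes. The SRSF9 summit lay 760 bp downstream of the TSS (chr12:120468959-120469091, 8 fragments, background 1.17, fold 4.15) and 862 bp from a TSS of DYNLL1. The SRSF6 summit lay 942 bp upstream (chr20:43456853-43456985, 6 fragments, background 0.697, fold 4.12), just inside the limit. SRSF1, the founding SR protein, SRSF4, SRSF7 and SRSF10 had none.

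Both FET genes, whose proteins carry RNA-binding and arginine-glycine-rich regions, had 2 peaks. Of all protein-coding genes, 47.2% had a peak and 27.3% had 2 or more. EWSR1, the gene broken in Ewing sarcoma, had a 5' end peak in intron 1, 605 bp downstream of the TSS (chr22:29268794-29269005, 9 fragments, background 1.06, fold 4.85). A TSS of RHBDD3 lay 664 bp from that summit. The other peak of EWSR1 was in intron 5, 13365 bp downstream (chr22:29281547-29281674, 5 fragments, background 0.778, fold 3.38). It had the lowest −log10 q of the 39 peaks, 1.32, and its 30 summit bases occur 9810 times in the genome.

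TAF15, which also associates with the general transcription factor TFIID, had a peak in intron 1, 3554 bp downstream (chr17:35812914-35813079, 5 fragments, background 0.697, fold 3.53). The other lay 46051 bp downstream, beyond the canonical transcript and within the body of HEATR9 (chr17:35855482-35855703, 10 fragments, background 1.43, fold 4.54). With only 2 genes in the family, its shares have no useful precision.

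Of the 9 other genes, 6 had a peak (66.7%, 29.9 to 92.5%), beside 47.2% of all protein-coding genes. For these 9, a 5' end peak was present in 4 (44.4%, 13.7 to 78.8%, beside 21.4%). An intron peak was present in 5 (55.6%, 21.2 to 86.3%, beside 30.5%). A pair of peaks or more was found in 5 of the 9, against 2 of 18 HNRNP, none of 10 SRSF and both FET genes. In all, 9 of 39 genes had 2 or more peaks (23.1%, 11.1 to 39.3%), beside 27.3% of all protein-coding genes. The intervals of the families overlap, and with 1 library no test of the difference between them was possible.

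KHDRBS1, which codes for Sam68, a KH-domain RNA-binding protein methylated by PRMT1, held 6 peaks, the most of the 39 genes. At the 5' end, a summit in coding exon 1, 257 bp downstream of the TSS (chr1:32013971-32014352), had 11 fragments over a background of 0.797 and a fold of 6.68. Another, 912 bp downstream (chr1:32014513-32014886), had 12 fragments over 1.43 and a fold of 5.36. These were wide peaks, of 382 and 374 bp.

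Further into intron 1 of KHDRBS1 the peaks were narrower. At 2081 bp (chr1:32015927-32016053) the summit had 8 fragments over 1.3 and a fold of 3.92, and at 4512 bp (chr1:32018353-32018503) 8 fragments over 0.719 and a fold of 5.23. At 10233 bp (chr1:32024066-32024226) it had 5 fragments over 0.697 and a fold of 3.53, in bases that occur 87 times in the genome. The last peak lay beyond the canonical transcript at 45468 bp (chr1:32059333-32059612, 9 fragments, background 2.05, fold 3.28).

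PTBP1, the polypyrimidine tract-binding protein and a repressor of many exons, had 3 peaks, all in intron 2. They lay 2160 bp (chr19:799563-799787, 11 fragments, background 1.56, fold 4.7), 4217 bp (chr19:801523-801693, 12 fragments, background 1.68, fold 4.84) and 5932 bp (chr19:803305-803489, 12 fragments, background 1.88, fold 4.52) downstream of the TSS. Their pileups and folds were nearly the same.

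CIRBP, a cold-inducible RNA-binding protein with an arginine-glycine-rich tail, had 4 peaks. A pair flanked the canonical TSS, 688 bp upstream (chr19:1268454-1268722, 11 fragments, background 1.31, fold 5.2) and 890 bp downstream (chr19:1270087-1270276, 10 fragments, background 2.05, fold 3.61). Another lay in coding exon 6 at 3010 bp (chr19:1272279-1272409, 10 fragments, background 1.62, fold 4.2). The remaining one lay 7830 bp upstream, 120 bp from another TSS of the gene (chr19:1261259-1261554, 8 fragments, background 1.1, fold 4.28).

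SAFB and SAFB2, which code for related scaffold attachment factors, lie head to head and share 1 peak, in intron 1 of SAFB (chr19:5623383-5623533, 9 fragments, background 1.54, fold 3.94). Its summit lay 337 bp downstream of the TSS of SAFB and 644 bp upstream of that of SAFB2. SAFB also had 2 peaks in intron 15, at 39447 bp (chr19:5662383-5662545, 8 fragments, background 1.3, fold 3.92) and 40794 bp (chr19:5663814-5664214, 10 fragments, background 1.13, fold 5.17). SAFB2 had 1 in intron 18, at 33206 bp (chr19:5589502-5589634), with 15 fragments, the highest pileup of the 39 peaks, but over the highest background, 3.11, and so a fold of 3.89.

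SYNCRIP, also called hnRNP Q, had a peak in intron 1, 1071 bp downstream (chr6:85641770-85641964, 9 fragments, background 0.697, fold 5.89) and 227 bp from a TSS of a protein-coding gene with no symbol. RBM15, a regulator of RNA adenosine methylation, PABPN1, the nuclear poly(A)-binding protein, and FBL, the methyltransferase fibrillarin, had none. Fibrillarin is a classical bearer of asymmetric dimethylarginine, as is hnRNP A1, and neither gene had a peak. KHDRBS1, whose protein is also methylated by PRMT1, had 6, and a relation between protein methylation and peaks was not tested.

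The 17 genes without a peak had their nearest one 0.859 to 316 kb from the gene (median 14.6 kb). The nearest to a gene lay 0.859 kb beyond the 3' end of FBL, 1.83 kb upstream of HNRNPD and 2.02 kb upstream of HNRNPA3, and the farthest was 316 kb from HNRNPA0. Genes without a peak were shorter: the median length was 35.3 kb in the 22 genes with a peak, against 11.3 kb in those without. Their starts were alike in composition, with a median CpG ratio of 0.968 in genes with a peak and 0.941 in genes without, and ranges that overlap. A longer gene offers more sequence in which a summit can fall, and the part of length in these counts was not tested.

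On chromosome 19, 7 of 8 genes had a peak (87.5%, 47.3 to 99.7%), beside 60.8% of all protein-coding genes of that chromosome, a share that the interval covers. The 7 were HNRNPL, HNRNPM, HNRNPUL1, PTBP1, SAFB, SAFB2 and CIRBP, and FBL had none. On the other chromosomes 15 of 31 genes had a peak (48.4%, 30.2 to 66.9%), beside 46.1% of genes there. The family with most genes on chromosome 19 was that of the other genes, with 5 of 9, and the SRSF and FET families had none there.

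Within the 5' end class, 8 of 11 pairs had the summit downstream of the canonical TSS, at 257 to 912 bp, and 3 had it upstream, in SRSF6, SAFB2 and CIRBP. In all protein-coding genes 78% of such pairs were downstream. None of the 11, which hold 10 distinct peaks, lay within 250 bp of the canonical TSS, beside 16.9% in all genes. Counting any annotated TSS of the gene, 3 did: the summits of HNRNPLL (18 bp), KHDRBS1 (57 bp) and HNRNPU (102 bp). So few pairs cannot show a lack of peaks near the TSS, and the difference was not tested. Of the 23 intron peaks, 12 (52.2%) lay within 5 kb of the canonical TSS, beside 21.6% in all genes and 33% in genes of the same length range. Intron 1 held 9 of them (39.1%), beside 28.8% in all genes and 29.4% in the same length range, and 10 (43.5%) lay within 1 kb of another annotated TSS of the gene, beside 22.9% and 31.3%. An exon of another transcript held 5 of the 23 summits (21.7%), beside 9.77% in all genes and 13.9% in the same length range. These intron shares rest on 23 peaks, no interval was made for them, and the differences were not tested. The number of annotated TSSs was not matched in the comparison. It ran from 4 in KHDRBS1 to 23 in HNRNPC among the genes with an intron peak.

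The peaks were of about the same height as most of the list. Their median pileup was 9 fragments over a median background of 1.13, with a median fold of 4.45 (range 3.28 to 7.41), while peaks of all protein-coding genes had medians of 10 fragments, 1.54 and 4.18. Only 2 of 39 peaks (5.13%, 0.627 to 17.3%), those of SRSF2 and the first of KHDRBS1, reached a −log10 q of 5, beside 4.24% of peaks of all genes. By family the median fold was 4.45 for HNRNP, 4.43 for SRSF, 4.03 for FET and 4.4 for the others, and the ranges overlap. The fold divides by the background, so the same pileup gives a higher fold where the background is low. A background at or near the lowest of the whole list, 0.697, was found at 7 of 39 peaks (17.9%, 7.54 to 33.5%), beside 9.01% of peaks of all genes. The peaks of SYNCRIP, SRSF11, SRSF6 and HNRNPH1 are among them.

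**Figure D3:**
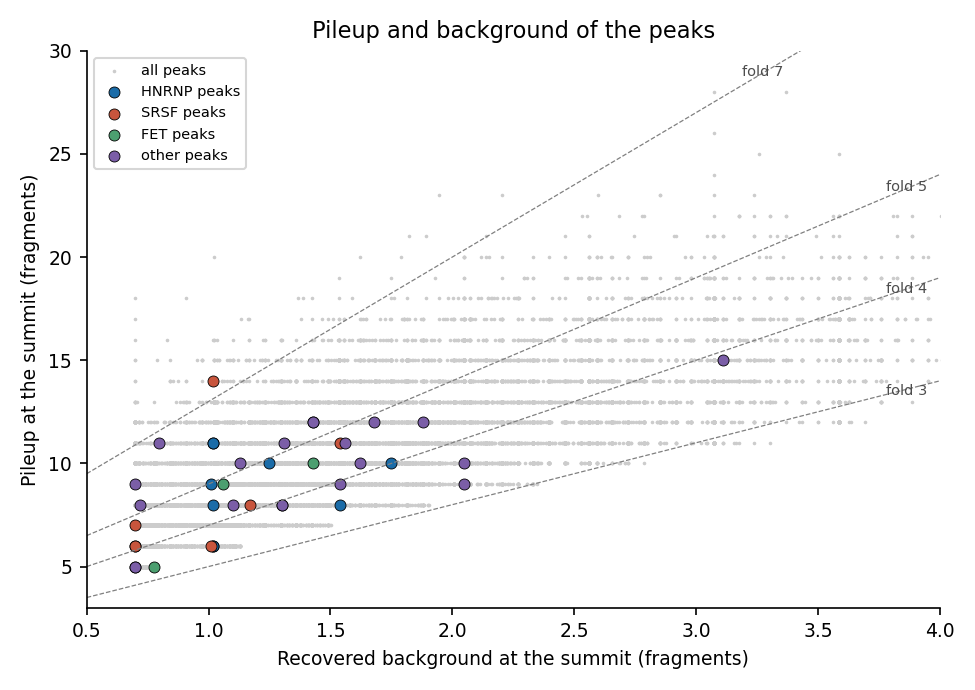
Pileup against the recovered background at the summit, in fragments, for the 39 peaks (coloured by family) over all peaks of the list (grey), with dashed lines of equal fold; the axes are cut at 4 and 30 fragments. The coloured points lie inside the grey cloud, SRSF2 at 14 fragments over 1.02 and SAFB2 at 15 over 3.11.

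Intron peaks of these genes had a lower median GC content than intron peaks in general. The difference was not tested, and no comparison with genes of like length was made. The 200 bp either side of the summit had a median GC content of 51.6% in the 23 intron peaks (44.1 to 65.1%), against 58.6% in intron peaks of all genes (quartiles 53.6 and 62.8%). Under 50% GC lay 9 of 23 (39.1%), against 12.3%. By family the intron medians were 50.1% for HNRNP (8 peaks), 49.4% for SRSF (3), 48.5% for FET (2) and 56.9% for the others (10). The median of the others lies within the quartiles of all genes, and those of HNRNP, SRSF and FET lie below the lower quartile. The 5' end peaks were at a median of 64%, against 65.3% in all genes, with SRSF6 lowest at 42.6%.

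**Figure D4:**
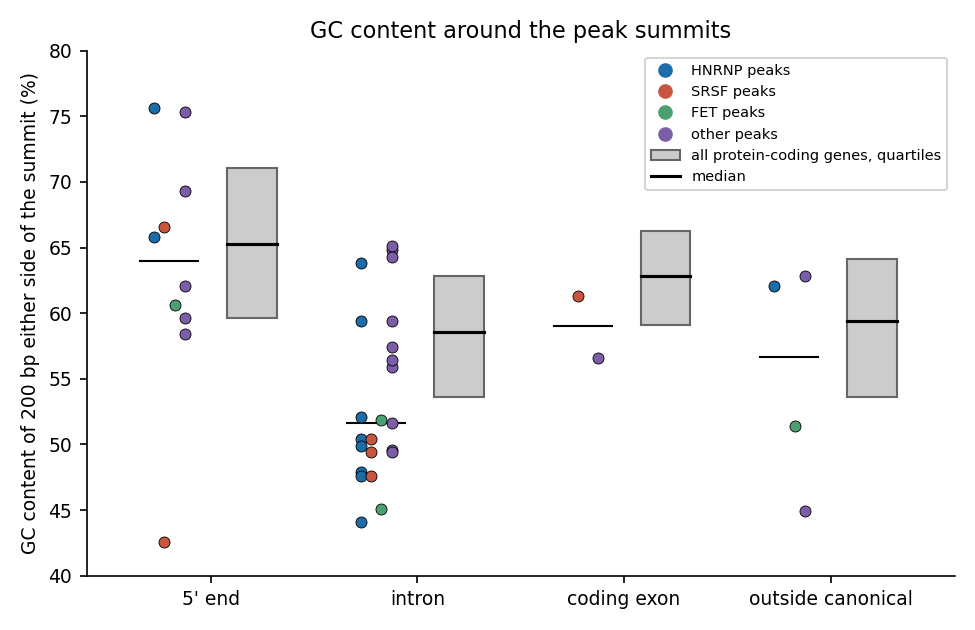
GC content, in percent, of the 200 bp either side of each summit, by class; points are peaks of the 39 genes coloured by family with their median as a line, and boxes are the quartiles of peaks of all protein-coding genes. In introns the median of the 39 genes, 51.6%, lies below the lower quartile of all genes, 53.6%.

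A list of 43 further genes of the pathway, 36 of the spliceosome and 7 for SR protein kinases and the SR import receptor TNPO3, gave a peak at 17 (39.5%, 25 to 55.6%), against the same background of 47.2%. These were 14 of the 36 and 3 of the 7. A 5' end peak was present in 6 of the 43 (14%, beside 21.4% of all protein-coding genes) and an intron peak in 10 (23.3%, beside 30.5%). Coding exon peaks were in 7 (16.3%, 6.81 to 30.7%), beside 11.4%. The only 3' UTR peak was that of SF3A1, a subunit of the U2 particle, with a fold of 3.82. The highest fold, 7.07, was at the 5' end of SRPK2, a kinase of SR proteins, 779 bp downstream of its TSS, and CLK1, another such kinase, had a fold of 5.3 at 785 bp. The interval of the 39 RNA-binding genes, 39.6 to 72.2%, overlaps that of these 43.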

How the data were processed

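The submitters' processing notes name Bowtie2, MACS2, deepTools and GRCh38. For versions and read depth, none is given in the sources used here, so depth is known from the pileup alone. Per the file headers, the deposited table of peaks holds the pileup signal at the summit (fragments, not normalized), the fold enrichment as a ratio over the local background, and −log10 p and q values. All are the authors' own and serve here to describe and filter peaks within 1 list. Peaks were called on 1 library against 1 input.

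Background was recovered as (pileup + 1) / fold − 1. Summits were placed in GENCODE release 44 by the Ensembl canonical transcript, and 1-based coordinates on GRCh38 were used. The class assignment was tested on simulated data. Python 3.11.15, scipy 1.17.1 and pysam 0.24.0 were used. Shares have Clopper-Pearson and rates exact Poisson intervals, and a count of 0 was given the limit of 3 counts. No test was run, for want of replicates. The members and lists were chosen with earlier results of these data known.

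All 39 genes are named. Position, pileup, background and fold are given for genes with 2 or more peaks and for the highest-fold peak of each class in each family. The remaining peaks are given too. The −log10 q is printed above only for SRSF2 and the intron 5 peak of EWSR1, and ran from 1.32 to 6.71 over the 39 peaks. It was 1.41 for HNRNPLL, SRSF5, intron 2 of HNRNPC, intron 1 of TAF15 and KHDRBS1 at 10233 bp. Alternatives were stricter peak sets, merged peaks, other windows, overlap in place of the summit, and other TSS sets. A planned count of arginine-glycine motifs in the proteins was not made.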

Additional observations from a re-analysis of the deposited data

How the results depend on the processing

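Over 11 alternatives and 10 counts, 90 of 110 values stayed within 1.5 times the main count and 20 did not. No 3' UTR peak appeared under any of the 11. Most of these only remove or merge peaks or widen the 5' end class, so they could not have raised a count of 0. With a −log10 q of 5 or more, 2 of the 22 genes with a peak were left (SRSF2 and KHDRBS1), with 2 peaks in place of 39. Genes with a 5' end peak then numbered 1 in place of 9, those with an intron peak 0 in place of 15 and those with a coding exon peak 1 in place of 2. By family 0 HNRNP, 1 SRSF, 0 FET and 1 other gene had a peak. With the 50% of peaks of higher −log10 q there were 21 peaks, 3 genes with a 5' end peak, 5 HNRNP genes and 3 SRSF genes. The 5' end count depended on the window: it was 4 genes at 500 bp, 18 at 3 kb, 16 with any TSS of the gene and 5 without peaks near a TSS of another gene. Coding exon peaks were in 1 gene at 3 kb, 0 with any TSS and 1 without peaks near a TSS of another gene. Recurring sequence was judged only by whether the bases around a summit occur elsewhere in the genome. Repeats whose copies differ in those bases are not counted this way. Overlap with annotated repeats was not tested, so further summits may lie in repeats. Leaving out the 3 peaks at recurring sequence left 22 genes, 36 peaks and 14 genes with an intron peak. That step was chosen after seeing the data, as was the removal of peaks near other genes. No paired analysis was possible because each group has 1 library, and the low pileups limit the detection of weak sites.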
